A study of Homo sapiens with 6 samples.

Results

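The alpha and beta tubulin genes were followed in KG1a, a cell line from a human acute myeloid leukaemia that has kept the immature CD34-positive state, after treatment with 7l, for which the labels give only this code name. The set holds 10 of the 20046 genes named on the array, 4 of alpha tubulin (TUBA1A, TUBA1B, TUBA1C and TUBA4A) and 6 of beta tubulin (TUBB, TUBB2A, TUBB2B, TUBB3, TUBB4B and TUBB6). They were chosen by name, and every probe that the platform's gene table gives to 1 of these symbols was taken, which gave 14 of the 47322 probes. The treated group was 3 arrays of KG1a cells given 7l at 2 µM for 24 h, and the control group was 3 arrays of KG1a cells whose vehicle and culture time the labels do not state. Both groups came from 1 cell line grown in the same serum-containing medium. Nothing in the labels tells if the 3 samples of a group were grown separately. The p-values therefore cover the spread between these arrays alone, and it may be technical.

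Alpha and beta tubulin form the dimers that polymerize into microtubules, the tracks of transport in the cell and the fibres of the mitotic spindle. Cells hold their tubulin in balance by autoregulation. When free dimers become abundant, the factor TTC5 recognises the first amino acids of tubulin chains as they leave the ribosome and, through SCAPER and the CCR4-NOT deadenylase, has the messenger RNAs degraded. Agents that break up microtubules therefore lower many tubulin messages at once, and agents that stabilise microtubules have the opposite effect. The comparison of 7l with control asked whether the tubulin transcripts moved together in this way.

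Their changes had both signs, and none of them passed the test. Among the brightly measured genes, TUBB was 1.18-fold lower with 7l by 1 probe and 1.34-fold lower by the other, whereas TUBA1B and TUBB4B were 1.06-fold and 1.07-fold higher with groups that touched or overlapped. TUBA1C gave opposite signs by its 2 probes. The dim gene TUBB2A was 1.44-fold higher. TUBB2B and TUBB3 were under background on all arrays, and TUBB6 was above it on at most 1 array of a group by either probe. Of the 7 members bright enough to be tested, 4 had a change above 0 and 3 below (48.9% of all genes tested lay below 0), and 0 were called higher or lower at an adjusted p under 0.05 (limma, adjusted over all 12334 genes tested). For all genes tested, 2.38% were called. At an unadjusted p under 0.05 stood 2 of the 7 members, TUBB and TUBB2A, with opposite signs, and 2526 of the 12334 genes, or 20.5%. Under a prior that follows intensity and is robust to outlying genes, 3 of the 7 were called, beside 13.8% of all genes. They were TUBB2A, higher, and TUBB and TUBA1C, lower.

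Intensities are the deposited probe values on a linear scale, which the arrays share after the authors' processing. Their distribution is nearly the same on all arrays (the median on control replicate 1 was 4.95), so that a rise or fall common to all transcripts cannot be seen. The level of a probe depends on the probe as well as on the transcript, so ratios between probes are used below only to compare the groups, not to rank genes. The background level, an intensity of 5.90 (log2 2.56), is the 95th percentile over 585 probes of genes that blood cells hardly use (the olfactory and taste receptor and keratin-associated protein families). The identity of the cells was checked on markers. CD34, PTPRC (CD45) and SPN (CD43) were above background on all 6 arrays, while FGFR1, which KG1a cells are known to carry as a fusion gene, was above it on none by its brightest probe. Of 7 neuron markers 0 were above background on all arrays and 5 on none, and their summed intensity was 15.1 to 30.8 in control and 16.2 to 26.5 in treated cells. Of 5 epithelial markers 0 were above background on all arrays and 2 on none, with sums of 10.9 to 32.0 in control and 11.5 to 22.2 in treated cells. Of 4 fibroblast markers 2, COL1A1 and COL3A1, were above background on all 6 arrays, with mean log2 intensities of 3.45 and 3.46 in control and 3.12 and 3.42 in treated cells. The other fibroblast markers, COL1A2 and PDGFRB, were above background on 1 array and on 0 arrays. The fibroblast sums were 21.3 to 31.3 in control and 20.2 to 28.9 in treated cells. What the COL1A1 and COL3A1 probes read in this cell line was not tested.

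**Figure D1:**
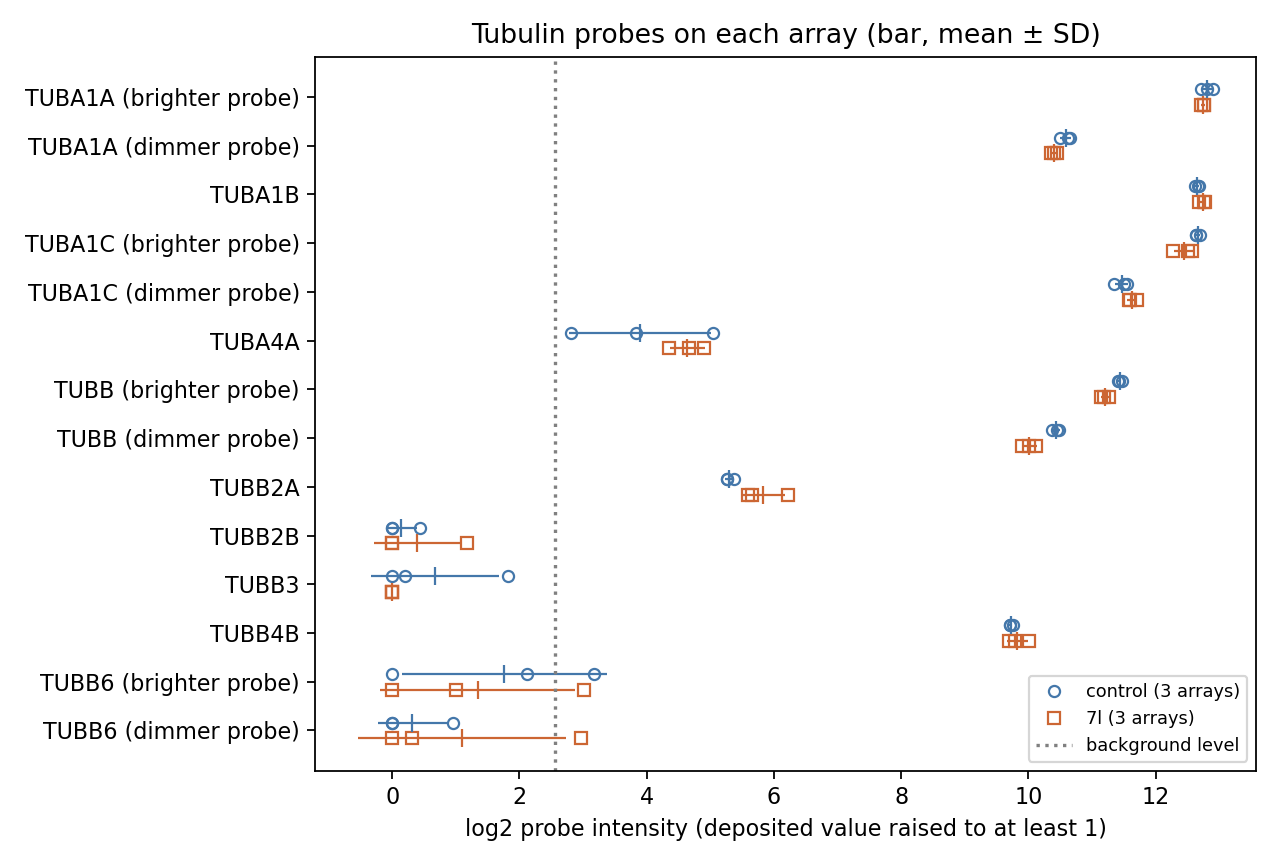
Log2 intensity of the 14 tubulin probes (rows) on each of the 3 control arrays (circles) and 3 arrays with 7l (squares), with the mean ± SD of each group and the background level as a dotted line. Both TUBB probes show separate groups with 7l lower, whereas TUBB2B and TUBB3 stay under the background level on all 6 arrays.

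The alpha tubulin genes TUBA1A, TUBA1B and TUBA1C lie next to each other among protein-coding genes in RefSeq's gene table (GRCh38.p14), and their products are nearly identical. Signal shared between such close copies cannot be separated here, so each value may hold a part of its neighbours. All 3 have a probe that ranked at or above the 99.6th percentile of all probes by mean log2 intensity. TUBA1A, the alpha tubulin prominent in young neurons, measured 7213, 7662 and 6694 in control cells and 6737, 6973 and 6973 in treated cells by its brighter probe (ILMN_2148819). These groups overlapped, and the log2 change was -0.06 ± 0.08 (SE; 95% interval -0.26 to 0.14; limma adjusted p = 0.725). Its dimmer probe (ILMN_1742981) measured 1610, 1578 and 1442 in control cells and 1347, 1395 and 1309 in treated cells, so that every treated array lay under every control array. The change by that probe was -0.19 ± 0.08 and did not pass (limma adjusted p = 0.285 over all 16594 probes tested).

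TUBA1B, a widely expressed alpha tubulin, measured 6300, 6484 and 6580 in control cells and 6580, 7018 and 6940 in treated cells (ILMN_1800261). The lowest treated value equalled the highest control value, and the others lay above. The log2 change was 0.08 ± 0.07 (SE; 95% interval -0.08 to 0.25; limma adjusted p = 0.531), which as a fold runs from 0.944 to 1.19. A fall of this probe's value by more than the lower bound lay outside the interval, which covers the spread between these arrays alone. Since the value may hold a part of its neighbours, it sets no limit on the TUBA1B transcript itself.

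TUBA1C, another widely expressed alpha tubulin, was read differently by its 2 probes. The brighter probe (ILMN_1742167) measured 6391, 6652 and 6376 in control cells and 6077, 4958 and 5806 in treated cells, with every treated array lower. The log2 change was -0.21 ± 0.10 (SE; 95% interval -0.46 to 0.04; limma adjusted p = 0.315), and without the array of 7l replicate 2, the lowest of them, it was -0.12. The dimmer probe (ILMN_3251341) measured 2600, 3004 and 2891 in control cells and 3342, 3090 and 3057 in treated cells, with every treated array higher. Its change was 0.16 ± 0.09 (limma adjusted p = 0.411 over all probes tested). With both probes averaged TUBA1C measured -0.02. The log2 ratio of brighter to dimmer probe was 1.20 ± 0.09 in control and 0.82 ± 0.13 in treated cells (mean ± SD, n = 3 each), without overlap, at an exact two-sided permutation p of 0.1, the smallest that 3 against 3 arrays allow. The 2 TUBA1C probes thus gave no common direction for the gene.

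TUBA4A, an alpha tubulin whose gene encodes no C-terminal tyrosine, was dim. It measured 32.8, 6.99 and 14.3 in control cells and 30.0, 25.3 and 20.4 in treated cells (ILMN_1784300), all above background and overlapping. The log2 change of 0.75 ± 0.58 (SE; limma adjusted p = 0.531) had a 95% interval from -0.73 to 2.23. It rested on single control arrays, since without control replicate 2 it was 0.20 and without control replicate 1 it was 1.32.

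Among the beta tubulins TUBB, the class I isotype that most dividing cells use, was lower by both probes. The brighter probe (ILMN_2101885) measured 2829, 2726 and 2752 in control cells and 2464, 2255 and 2340 in treated cells. The dimmer probe (ILMN_1665583) measured 1437, 1400 and 1320 in control cells and 1035, 952 and 1118 in treated cells. By both probes every treated array lay under every control array. The log2 changes were -0.24 ± 0.07 (SE; 95% interval -0.41 to -0.06; limma adjusted p = 0.152 over genes) and -0.42 ± 0.09 (95% interval -0.66 to -0.19; limma adjusted p = 0.104 over probes), and neither passed. Under a prior that follows intensity and is robust to outlying genes, both did, with an adjusted p = 0.00789 for the gene and an adjusted p = 3.51e-05 for the dimmer probe, in a setting where 13.8% of all genes and 12.2% of all probes were called. With 16 added to every intensity the dimmer TUBB probe passed too (adjusted p = 0.0486), where 4.72% of all probes were called. Over the alternatives run, the adjusted p of TUBB ranged from 0.00789 to 0.333, and its log2 change from -0.33 to -0.21.

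TUBB4B, a beta tubulin of many tissues and of cilia, measured 839, 840 and 862 in control cells and 884, 826 and 1031 in treated cells (ILMN_1780769). The groups overlapped, with the treated arrays more spread. The log2 change was 0.10 ± 0.10 (SE; 95% interval -0.16 to 0.36; limma adjusted p = 0.627), and without 7l replicate 3 it was 0.01.

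TUBB2A, a beta tubulin abundant in nervous tissue, was dim but above background on all arrays. It gave 41.3, 38.3 and 38.2 in control cells and 48.4, 74.7 and 50.2 in treated cells (ILMN_2038775), so that every treated array was higher and 1 of them stood apart. The log2 change was 0.53 ± 0.19 (SE; 95% interval 0.05 to 1.00; limma adjusted p = 0.208) and did not pass. Without 7l replicate 2, the highest array, it was 0.33. With 16 added to every intensity, which shrinks folds of dim probes, it was 0.40. Under the trended and robust prior TUBB2A passed (adjusted p = 0.0351), with the opposite sign to TUBB and TUBA1C, the other members that passed there. Over the alternatives run, the adjusted p of TUBB2A ranged from 0.0351 to 0.371 and that of TUBA1C from 0.0200 to 0.909.

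The remaining beta tubulins gave no usable level. TUBB2B, which neighbours TUBB2A in RefSeq's gene order and is its near-identical copy, lay between 1 and 2.25 on the 6 arrays. TUBB3, the beta tubulin of neurons, sat at 1 on all treated arrays and reached 3.54 on 1 control array. TUBB6 was above background on 1 control and 1 treated array by its brighter probe (9.0 and 8.07) and on 1 treated array by its other probe (7.84). No fold is given for these 3 genes, and all 4 of their probes lay under the intensity filter of the test (mean log2 1.76, the median of all probes).

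**Figure D2:**
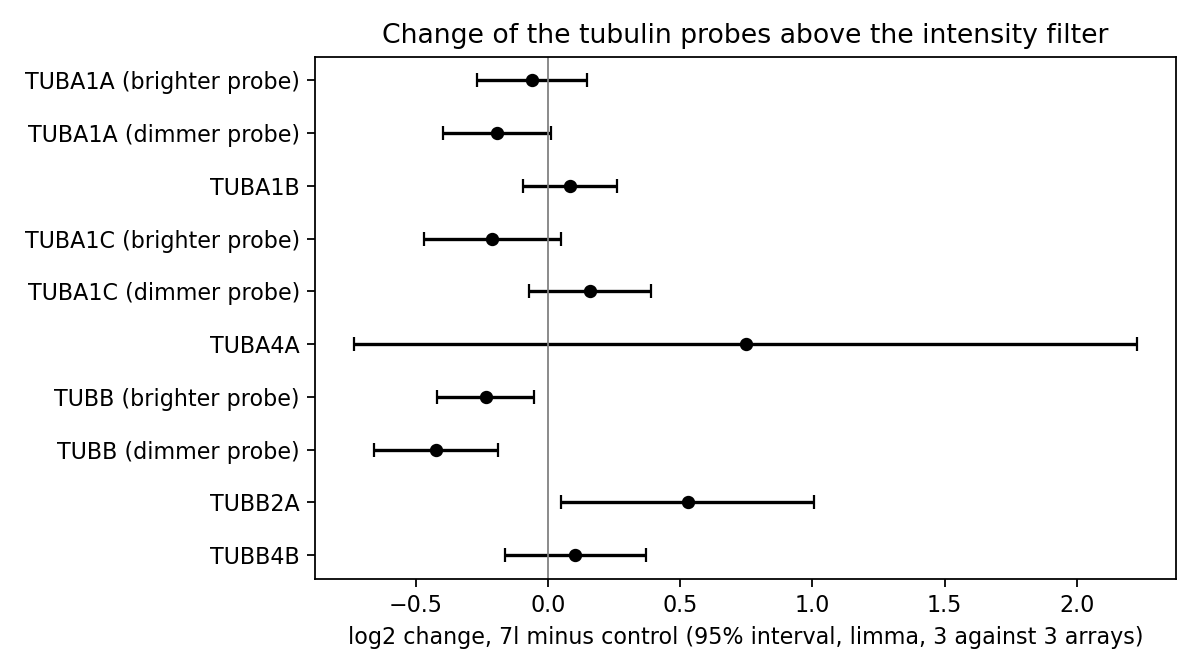
Log2 change, 7l minus control, of the 10 tubulin probes above the intensity filter (points), with 95% intervals from limma fitted to all 16594 probes tested. The intervals of both TUBB probes lie under 0 and that of TUBB2A lies above 0 before adjustment, and the probes of TUBA1C fall on opposite sides of 0.

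Read by probes, the 10 tested tubulin probes had 5 changes above 0 and 5 below (49.8% of all probes tested lay below 0), and 0 were called (limma; 3 at an unadjusted p under 0.05), where 1.51% of all probes tested were called and 19.1% had such an unadjusted p. The groups did not overlap in 6 of the 10, with 7l lower in 4 and higher in 2, and this was so for 27.7% of all probes tested. By genes, 3 of the 7 tested members had groups that did not overlap (TUBB and TUBA1C lower, TUBB2A higher), beside 28.9% of all genes tested. The median log2 change was 0.08 over the 7 genes and 0.01 over all genes tested, and the median size of a change was 0.21 over both.

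Size against brightness was described by taking, after the values were seen, the 1006 tested genes whose probe was at least as bright as that of TUBB4B. Their median change in size was 0.09 on the log2 scale, and 2.68% of them were called. Of these bright genes, 15.0% changed by more than TUBB, 18.8% by more than TUBA1C, 45.8% by more than TUBB4B, 54.5% by more than TUBA1B and 67.3% by more than TUBA1A. For TUBA1C this holds for its brighter probe only, since with both probes averaged it measured -0.02 and without 7l replicate 2 -0.12. The shares for TUBB and TUBA1A rest on their brighter probes too, and their dimmer probes changed by more (-0.42 and -0.19).

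**Figure D3:**
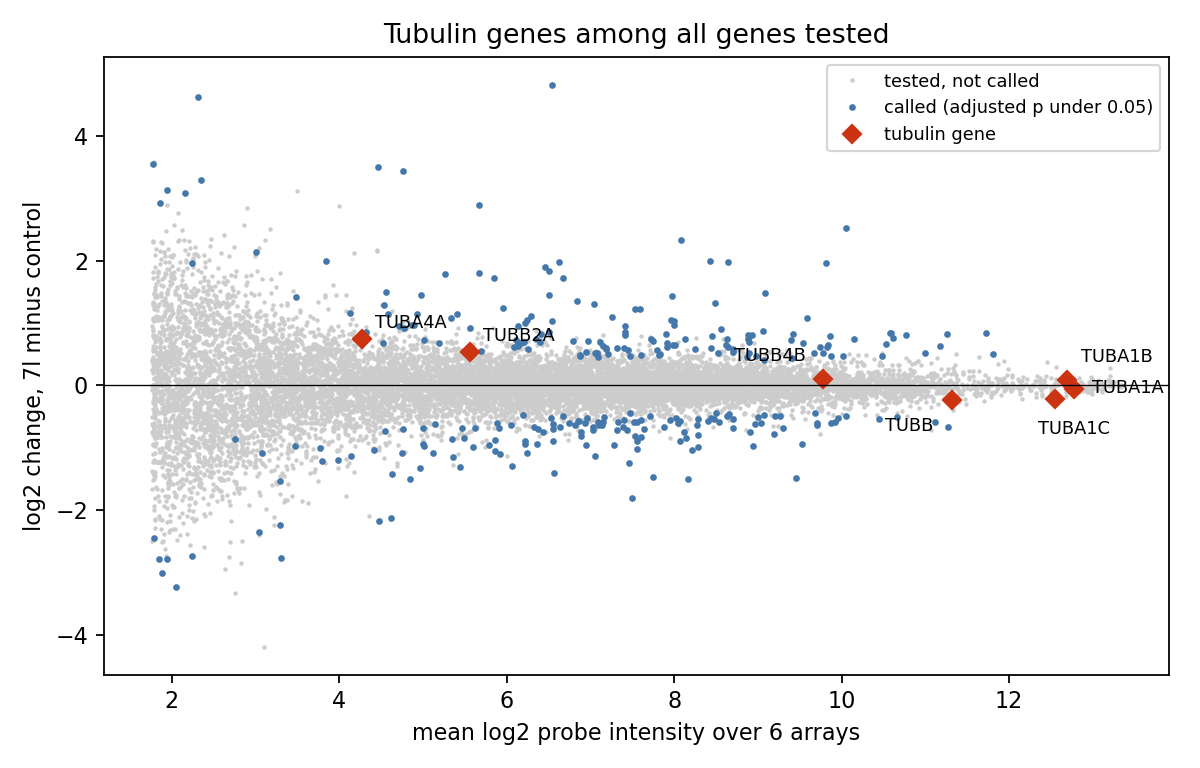
Log2 change, 7l minus control, against mean log2 intensity for the 12334 genes tested (grey), the called genes (blue) and the 7 tested tubulin genes (diamonds). The tubulin genes lie on both sides of 0, and none is among the called genes.

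The factors of tubulin autoregulation were measured as well. For these and the lists that follow, 2.38% of all genes tested were called and 20.5% had an unadjusted p under 0.05. Of 13 listed genes of autoregulation and CCR4-NOT, 12 were tested with 0 called (limma; 2 at an unadjusted p under 0.05) and a median log2 change of 0.02. CNOT6L, a deadenylase subunit, measured 0.45 ± 0.13 and CNOT9 -0.22 ± 0.08 (SE). TTC5, the sensor of tubulin chains, measured -0.17 ± 0.10, SCAPER 0.21 ± 0.17 and CNOT11, the subunit that SCAPER binds, 0.08 ± 0.09. These last 3 are named for their role, outside the rule for naming genes and after their values were seen.

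Genes that fold tubulin held no called gene. All 14 TRiC and prefoldin genes, subunits of the chaperones that take up newly made tubulin and actin, were tested with 0 called (1 at an unadjusted p under 0.05) and a median of 0.01, with CCT5 at 0.33 ± 0.13 and CCT6A at -0.24 ± 0.10. All 7 folding cofactor genes, whose products join alpha to beta tubulin, were tested with 0 called (1 unadjusted) and a median of -0.05. ARL2, a GTPase of that step, measured -0.21 ± 0.07 and TBCB, cofactor B, -0.17 ± 0.08.

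Other genes of microtubules also held no called gene. The gamma tubulin ring and minor tubulin list, which covers the seeds of new microtubules, had 11 of 13 genes tested, 0 called (3 unadjusted) and a median of 0.02. Its lowest p-values belonged to MZT1, a small subunit of the ring, at 0.37 ± 0.07 (limma adjusted p = 0.0731), and TUBE1, epsilon tubulin, at 0.69 ± 0.15. In the list of tubulin modifying enzymes 15 of 21 genes were tested with 0 called (4 unadjusted) and a median of 0.10. SVBP, the partner of the enzymes that remove the terminal tyrosine of alpha tubulin, measured -0.43 ± 0.07 (adjusted p = 0.0580), and the tubulin glycylase gene TTLL3 0.87 ± 0.16. VASH1, 1 of the enzymes that SVBP partners, went the other way at 0.43 ± 0.10 (limma adjusted p = 0.0970) and was not called. VASH1 is named for its role, outside the rule for naming genes. TTLL3 was above background on 4 of the 6 arrays with a control mean of log2 2.48, under the background level, so the size of its change depends on dim values. Among microtubule binding, end-tracking and severing genes 17 of 25 were tested with 0 called (7 unadjusted) and a median of 0.20. KATNA1, the severing subunit of katanin, measured 0.32 ± 0.07 and MAP7, which recruits kinesin to microtubules, -0.41 ± 0.09.

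Of the 8 other alpha and beta tubulin genes 4 were tested with 0 called (0 unadjusted). TUBAL3 measured 1.80 ± 0.96 but lay above background on 4 of the 6 arrays only, and its control mean of log2 1.09 ± 1.88 (SD) was under that level, so this value depends on the floor and is no measured fold. TUBA3D measured -0.12 ± 0.08, and whether its probe also reads other alpha tubulins was not tested. The actin and intermediate filament list, a cytoskeletal set outside microtubules, had 11 of 12 genes tested, 0 called (0 unadjusted) and a median of 0.03, with LMNB2 at 0.13 ± 0.07 and TMSB10 at -0.17 ± 0.10.

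Genes of the G2/M phase, in which the spindle is built, were higher in part. Of 12 tested, 4 were called higher and 0 lower (9 at an unadjusted p under 0.05), with a median of 0.52. Of all genes tested, 1.22% were called higher. The change was above 0 in 9 of the 12 and below 0 in 3, where 48.9% of all genes tested lay below 0. CDK1 measured -0.23 ± 0.08 and was not called, with every treated array under every control array. It is named outside the rule for naming genes. CDC20 rose by 0.83 ± 0.07 (limma adjusted p = 0.0216), BIRC5 by 0.62 ± 0.07, AURKA by 0.82 ± 0.11 and AURKB by 0.47 ± 0.07. The part of a shift in cell cycle phase in the tubulin values was not tested.

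**Figure D4:**
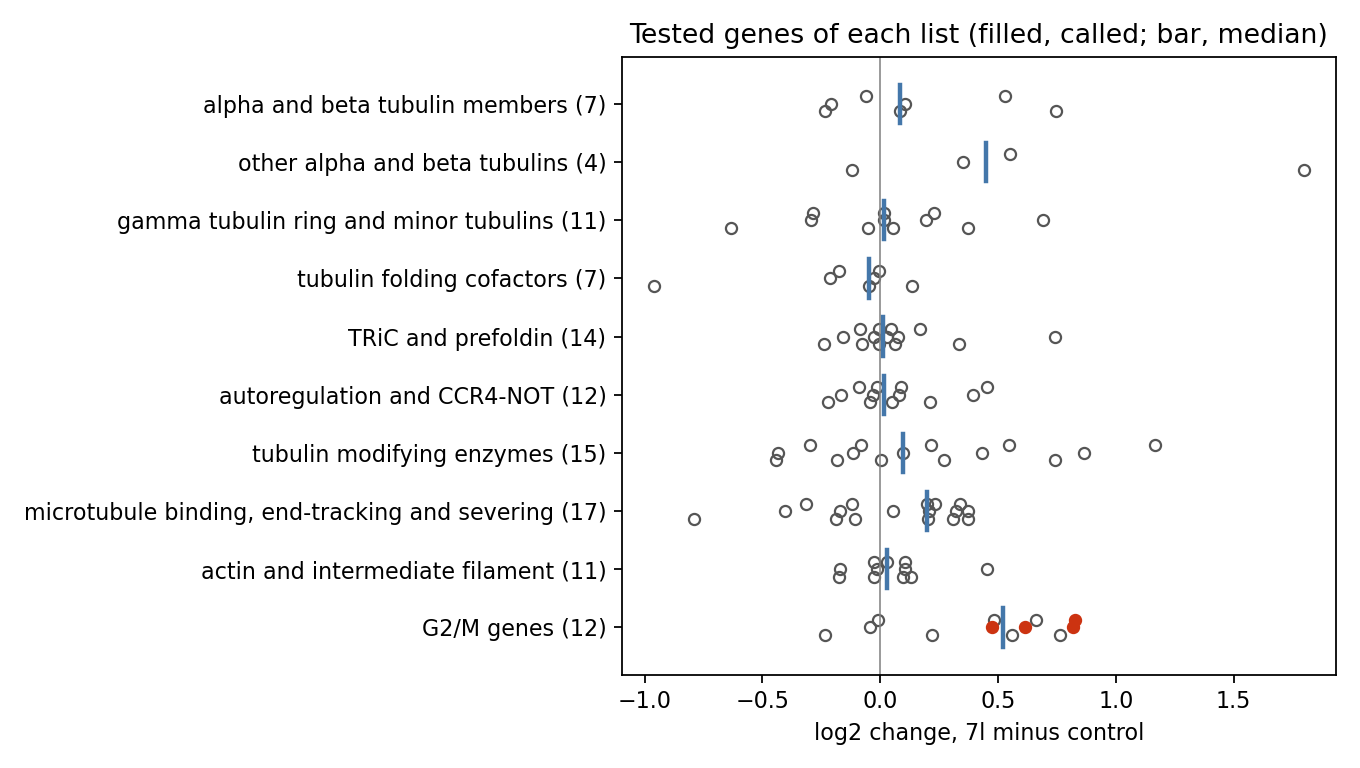
Log2 change, 7l minus control, of each tested gene of the tubulin set and of 9 further lists (circles, filled where called; number tested in parentheses), with the list's median as a bar. The called genes shown are 4 of the G2/M list, and the tubulin genes scatter on both sides of 0.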

How the data were processed

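RNA of 6 samples, 3 control and 3 given 7l, was made into biotinylated cRNA for Illumina arrays, per the labels' protocols. The deposited values are intensity, linear, from 1 to 10984, in a single table of all arrays. How the authors corrected and normalized them is not given in the sources used here. After sorting, 97.8% of ranks held equal values on all arrays (to within 0.0001 of the value), a mark of quantile normalization. Between 32.7% and 34.2% of an array's probes sat at the floor of 1. Groups and replicate numbers came from the sample titles.

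Of 47322 probes, 30113 carry 1 symbol in a platform table, 8 carry several and 17201 are unnamed there. Values were raised to at least 1 and log2 transformed. Each gene was represented by its probe of highest mean, kept if it lay above the median mean of all probes (log2 1.76). In a second fit every such named probe entered by itself. Both fits used R 4.3.3 and limma 3.58.1 (lmFit, eBayes with the default prior, two-sided, 4 residual and 1.24 to 1.25 prior degrees of freedom) with Benjamini-Hochberg adjustment over the whole table, and changes are 7l minus control. For 3 genes with 2 probes above the filter, the ratio of the probes was compared by an exact permutation test. The gene test was tested on simulated data. The number of arrays limits the precision.

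The members and lists were chosen with earlier results of these data known. The genes named are all members and, of each list other than the marker lists, the called genes (at most 4) or those of lowest p up to 2. Markers are named where they bear on the identity of the cells. TTC5, SCAPER, CNOT11, VASH1 and CDK1 are named outside this rule, as stated where they appear. Alternatives were other normalizations, an offset of 16, filters, averaged probes, another prior, array weights, a replicate block and each array left out. Genome positions served only to find which genes are neighbours in RefSeq's gene table, and probe sequences were not used here. Plots were made in Python 3.11.15 with matplotlib 3.10.9 and pandas 2.3.3.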

Additional observations from a re-analysis of the deposited data

How the results depend on the processing

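The 7 tested tubulin genes kept the sign of their change under all 15 alternatives run, and 0 of them were called under 14. Under quantile normalization, the other filters, the other prior and the replicate block, the changes equalled those reported. These settings therefore do not test the sign. The dimmer TUBA1C probe, which gave a change of the opposite sign (0.16), did not stand for its gene alone in any alternative. With the trended and robust prior 1 tubulin gene was called higher (TUBB2A) and 2 lower (TUBB and TUBA1C), and 1 tubulin probe was called higher and 3 lower. Under this prior 13.8% of all genes tested and 12.2% of all probes tested were called. That setting called 889 genes higher and 813 lower over the whole table, against 150 and 143 as reported. With an offset of 16, 1 tubulin probe was called lower, the dimmer one of TUBB (log2 change -0.42, limma adjusted p = 0.0486), where 4.72% of all probes were called. Leaving out any 1 array gave 0 to 0 tubulin genes called in either direction, and 6 to 20 genes higher and 0 to 10 lower over the whole table. Fitted with the replicate number as a block, 0 tubulin genes and 0 tubulin probes were called, as were 0 of all genes. Deviations of same-numbered arrays correlated at -0.02, -0.00 and 0.00, and 0 of the 3 treated arrays correlated best with the control array of its own number. Apart from that number, the labels state no pairing of the samples. With 3 arrays a group and many dim probes among the genes, these correlations cannot exclude a pairing. The smallest adjusted p of a tubulin gene under the replicate block was 0.286 (TUBB). The fits rest on 3 arrays a group, and dim probes (TUBA4A, TUBB2A) have the widest intervals.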

Other observations

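The difference between TUBB, a beta tubulin, and TUBA1B, an alpha tubulin, was looked at after the values were seen, so it has no test. Within each array, the log2 ratio of TUBB (brighter probe) to TUBA1B was -1.15, -1.25 and -1.26 on the control arrays and -1.42, -1.64 and -1.57 on the arrays with 7l. The ratio was lower on every treated array, by 0.32 in the mean on the log2 scale (-0.32). The 2 probes of TUBB differed as well. The log2 ratio of the brighter to the dimmer one was 1.00 ± 0.05 in control and 1.19 ± 0.11 in treated cells (mean ± SD, n = 3 each), and that of the TUBA1A probes was 2.22 ± 0.06 and 2.35 ± 0.05. In both genes the dimmer probe had the lower change and the groups of the ratio did not overlap. How often the probe ratio separates the groups in other genes was not measured. The separate ratios, that of TUBA1C included, are therefore not shown to be particular to tubulins. The exact permutation p was 0.1 for each, the smallest that 3 against 3 arrays allow, and 0.1 after adjustment over the 3 genes compared.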
